A study of Sus scrofa with 70 samples.

Results

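Incomplete splice match (ISM) isoforms are full-length sequences whose splice junctions match a consecutive part of an annotated transcript but not all of it. Among 110996 non-redundant isoforms found by PacBio long-read sequencing (Iso-seq) in boar reproductive glands, 13201 were ISM, and 7890 of these carried a reported polyadenylation signal near their 3′ end. Those 7890 members, from 4882 genes, were defined by category and signal. In total, 3965 of them (50.3%, from 2760 genes) ended more than 100 bp upstream of the end of the annotated transcript that they matched, and they are called early-ending members here. A further 2955 (37.5%) ended within 100 bp of that end, and 970 (12.3%) ended more than 100 bp past it.

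The 10 Iso-seq libraries came from the bulbourethral gland, epididymis, prostate gland, testis and vesicular gland of 12-month-old adult boars of 2 breeds, the Banna mini-pig inbred line (BMI) and the Diannan small-ear pig (DSE). The animals received no treatment, and each gland of each breed had 1 library. A gland therefore had 2 libraries that also differed in breed, and whether libraries of 1 breed came from the same animal was not given in the sources used here. The p-values below measure only the spread between these libraries.

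Cleavage and polyadenylation end a messenger RNA. The cleavage and polyadenylation specificity factor recognises a hexamer, most often AATAAA, shortly before the cut, and poly(A) polymerase then adds the tail. Many genes have several such sites. A site in the last exon shortens the 3′ untranslated region, whereas a site in an intron gives a shorter RNA that lacks the exons behind it, and testis is known for frequent use of upstream sites in round spermatids. Iso-seq libraries are primed on poly(A), so a run of A inside an RNA can be primed as well as a true tail. For this reason long-read annotation reports both the hexamer and the percentage of A among the 20 genomic bases after the end.

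Early-ending members differed in the bases around their ends. The last bases of 4 early-ending members with few A after the end are shown first, from the Sscrofa11.1 genome and in the direction of transcription, with the reported signal in capitals. They were chosen because the genes return in the results below.

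CAT (chr2:26493672-26493701, minus strand): tacatttttacAATAAAataatctgcactt
GEMIN4 (chr12:47104545-47104574, plus strand): tgttacAGTAAAacaagcagtttatgtaag
ELAVL1 (chr2:71245997-71246026, plus strand): agaccATTAAAtttgattttgttttgctcg
COMMD10 (chr2:120430541-120430570, plus strand): tcatgtaaATTAAAatacccttgtctgtgt

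Each of these ends was followed in the genome by at most 50% A, and the signal ended 14 to 20 bases before the cut. In 4 other early-ending members the end lay directly before a run of A. For these the 20 bases behind the end are given as well, on a line of their own.

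LMBRD2 (chr16:21424484-21424513, minus strand): atatgccatgggggtggcccAAGAAAtggc
LMBRD2, bases after the end (chr16:21424464-21424483, minus strand): aaaaagacaaaaacaaaaac
ENSSSCG00000039473 (chr12:37900903-37900932, plus strand): atatgccgcgggagcggcccAAGAAAcagc
ENSSSCG00000039473, bases after the end (chr12:37900933-37900952, plus strand): aaaaagacaaaaaaaaaaaa
PAFAH1B2 (chr9:44535856-44535885, plus strand): atccatatgctgtgggtgcagcCATAAAtt
PAFAH1B2, bases after the end (chr9:44535886-44535905, plus strand): aaaaaaaaaaaaaaaaaaca
HLCS (chr13:200419510-200419539, minus strand): tcaaggctgtggtgctgctcAATACAgttt
HLCS, bases after the end (chr13:200419490-200419509, minus strand): aaaaaaaaaaaaaagagacg

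The signals of these 4 ends finished 3 to 5 bases before the end. The members of LMBRD2 and ENSSSCG00000039473, which lie on different chromosomes, shared most of their last 30 bases.

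Library depth ranged from 231413 to 458697 full-length reads, both in epididymis (DSE and BMI), and members took 10.9% to 17.3% of the reads of a library. The library labelled BMI prostate gland stood apart. Across 9849 isoforms its log2 CPM correlated at 0.88 and 0.86 with the BMI and DSE vesicular gland libraries but at 0.75 with DSE prostate gland, which correlated at 0.82 and 0.83 with the bulbourethral gland libraries. It also held 14 of 14 isoforms seen in the other 4 DSE libraries and in none of the other 4 BMI libraries. Of 11 isoforms seen in the other 4 BMI libraries and in none of the other 4 DSE libraries, it held 3, and DSE prostate gland held 1. These correlations describe libraries whose reads were clustered and collapsed together. Results on prostate gland and breed are given with and without the library labelled BMI prostate gland. The BMI bulbourethral gland library held 8810 CPM (counts scaled to the library total) of 7 skeletal muscle markers (4 found), against 0 to 17.5 in the other 9 libraries. Of the glands, marker lists were run for testis and epididymis, beside 5 lists of other cell types. Summed germ cell markers were at 1860 and 2800 CPM in testis and at 0 to 17.3 elsewhere, and epididymis markers were at 25500 and 13500 in epididymis and at 23.8 to 340 elsewhere. Testis was low for 6 epithelial markers (13.2 and 26.2 CPM, against 821 to 2510 elsewhere) and for 10 smooth muscle and fibroblast markers (1010 and 533 CPM, against 4870 to 17600), and their part in the testis results was not tested.

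Early-ending members were numerous but mostly rare. They made up 50.3% of members and held 144754 of 490304 member reads (29.5%), whereas members at the reference end held 238444 reads (48.6%). The median early-ending member had 5 reads over all libraries, and 1170 (29.5%) had 2. At the other extreme, 407 had reads in all 10 libraries. In total, 493 (12.4%) were found in 1 library. The distance to the reference end was long, with a median of 16117 bp and quartiles of 4293 and 42953 bp, and 3678 (92.8%) lay more than 1000 bp upstream. Few ends lay near the threshold, 17 members in the 50 bp before it and 18 in the 50 bp past it. Most genes had a single early-ending member, 768 had 2 or more and 38 had 5 or more. KTN1, which encodes the kinesin-binding membrane protein kinectin, had 11. AKAP9, a scaffold of centrosome and Golgi, and ODF2, a component of the outer dense fibres of the sperm tail, had 10 each.

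Most early ends lay in introns of the matched transcript. Introns held 3060 ends (77.2% of early-ending members and 60% of their reads), internal exons held 556 (14%, with 32.2% of the reads), and the last exon held 349 (8.8%, with 7.84% of the reads). Ends in internal exons had the highest median, 14 reads, against 4 in introns and 4 in last exons. No end lay in a first intron, since a member has to match at least 1 junction, and 507 (16.6%) lay in the last intron.

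Early-ending members mostly began with the first exons of the matched transcript. In total 2759 (69.6%, with 80.8% of their reads) were 5′ fragments, which match the first exons and stop early. Intron retention accounted for 573 (14.5%), internal fragments for 451 (11.4%) and 3′ fragments for 182 (4.59%). The 5′ end overlapped an annotated transcript start, a mark the deposited table names after CAGE peaks but the study takes from Ensembl starts, for 80.6% of early-ending members and for 40.6% of members at the reference end. The lower value follows in part from the category, since an ISM isoform that reaches the reference end mostly has to lack exons at its 5′ end. The reference stop codon lay behind the end for 3006 of 3934 early-ending members with a coding reference (76.4%, Wilson 95% interval 75.1 to 77.7), against 5 of 2939 (0.17%) at the reference end, where the class itself leaves little room for such an end. Nonetheless 3639 were predicted to be coding, with a median open reading frame of 359 amino acids against 362 at the reference end. Nonsense-mediated decay was predicted for 57 of these (1.57%) and for 59 (2.11%) of the coding members at the reference end. Intervals cover counting error only, since isoforms of 1 gene are not independent.

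The bases behind the ends set the early-ending members apart. Among early-ending members, 1998 of 3965 (50.4%, 48.8 to 51.9) were A-rich, meaning that at least 60% of the next 20 genomic bases were A. The share was 171 of 2955 (5.79%, 5 to 6.69) at the reference end and 107 of 970 (11%) past it. For 123 early ends all 20 bases were A. Counted by reads, A-rich ends took 22.3% of the reads of early-ending members and 3.07% of those at the reference end, and the first share was the higher one in 10 of 10 libraries.

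**Figure D1:**
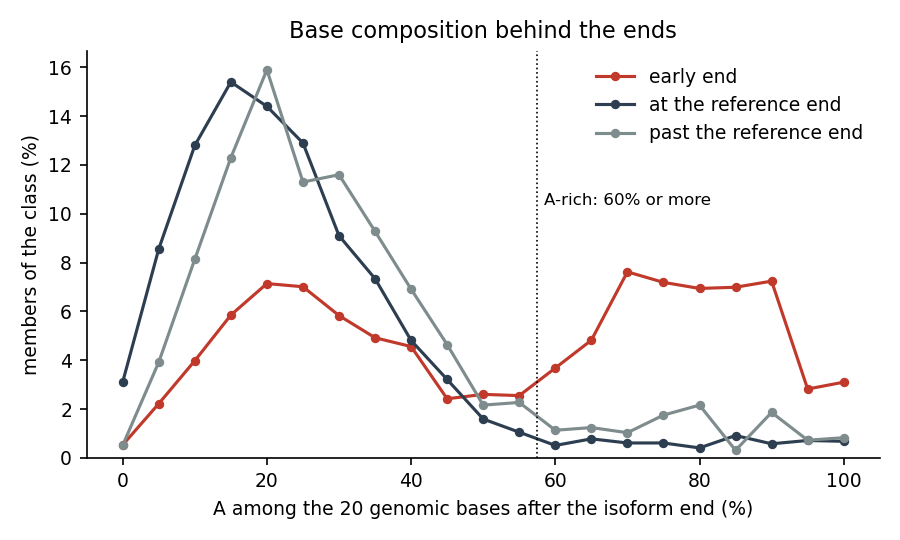
The x axis gives the percentage of A among the 20 genomic bases after the isoform end, and the y axis gives the percentage of members of each class (3965 early, 2955 at the reference end, 970 past it). Early-ending members form 2 humps, near 20% and from 70 to 90% A, while the other classes have mainly the lower one; the dotted line marks the limit of 60%.

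The place of an end and its composition went together. A-rich ends made up 58.6% (56.8 to 60.3) of ends in introns, 29.5% (25.9 to 33.4) of those in internal exons and 11.7% (8.78 to 15.5) of those in last exons. Within introns, A-rich ends lay a median of 1533 bp behind the exon and other ends 656 bp. A-rich ends lay farther from the reference end (median 28714 bp, against 6962 bp), preceded the stop codon more often (93.9%, against 58.7%) and left a shorter reading frame (median 289 amino acids, against 431). Members seen in 1 library were similarly frequent, at 12.2% of A-rich and 12.7% of other early-ending members. Of the 407 seen in all 10 libraries, 86 were A-rich and 321 were not.

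ISM isoforms without a signal, which the choice of members leaves out, were A-rich in 88.9% of 5311 cases (88.1 to 89.7). Full splice match isoforms with a signal were A-rich in 8.68% of 6347 cases. Of the 1059 full splice matches that ended early, 14.7% were A-rich, against 50.4% of early-ending members.

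The signal itself differed between the 2 kinds of early end. AATAAA, the canonical hexamer, was reported for 72.8% of members at the reference end, for 57.4% of early-ending members that were not A-rich and for 13.7% of A-rich ones. ATTAAA, its most common variant, was at 15.8%, 17.7% and 6.26% in the same classes. AAGAAA was reported for 24.8% of A-rich early ends and 2.24% of the others, and AAAAAG for 13.9% and 2.03%. At the reference end AAGAAA was at 1.02% and AAAAAG at 1.08%.

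The position of the signal differed as well. In members at the reference end the last base of the signal lay at a median of −18 from the end (quartiles −22 and −15), and early ends that were not A-rich gave the same median and quartiles. In A-rich early ends the median was −14 with quartiles of −28 and −5. Between −30 and −10 lay 88.9% of signals at the reference end, 84.3% in early ends that were not A-rich and 39.6% in A-rich early ends.

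**Figure D2:**
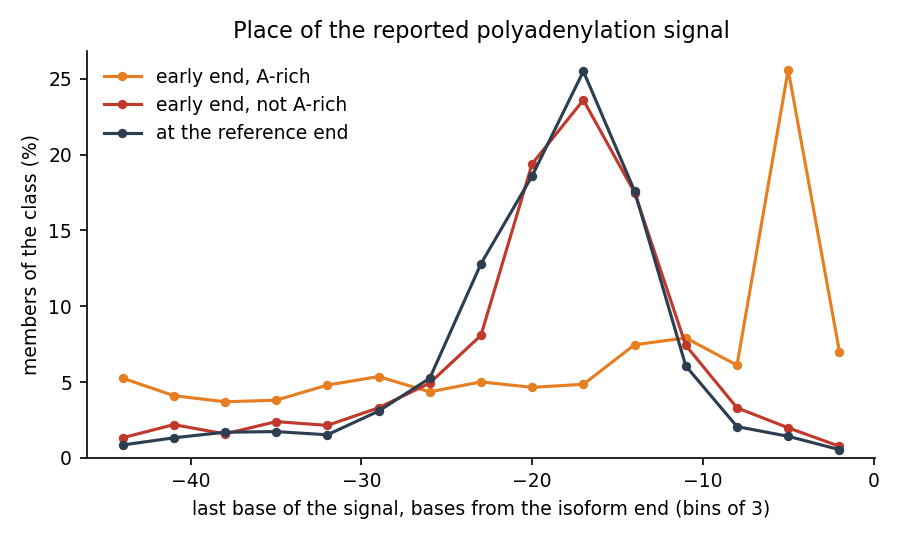
The x axis gives the position of the last base of the reported signal relative to the isoform end in bins of 3 bases, and the y axis the percentage of members in each of 3 classes. Members at the reference end and early ends that are not A-rich peak together near −17, while A-rich early ends are spread out with a peak of 25.6% at −6 to −4.

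A pair of 10-base strings, searched on both strands after they were seen to be the most common in the 50 bases before A-rich early ends, recurred there. AGCCTGGGAA stood before 361 of 1988 such ends (18.2%) and CTCCATATGC before 342 (17.2%). One or the other was found before 453 (22.8%, with 24.6% of the reads) and both before 250 (12.6%). In early ends that were not A-rich, either string was found before 2 of 1943 (0.103%), at the reference end before 15 of 2900 (0.517%), and over all members before 490 of 7791 (6.29%). On the reverse strand neither occurred in any early-ending member. The strings went with 1 signal above the others, standing before 340 of 494 A-rich ends with AAGAAA (68.8%) and 81 of 277 with AAAAAG (29.2%) but before 3 of 271 with AATAAA (1.11%). As background, letters of this kind stand near the A-rich 3′ end of PRE-1, a common short interspersed element of the pig genome. Repeat annotation was not used here. The sequences printed above for LMBRD2, ENSSSCG00000039473 and PAFAH1B2 hold the last letters of the second string.

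A second annotation knew few of the A-rich ends. A RefSeq transcript end on the same strand lay within 100 bp of 587 of 1943 early ends that were not A-rich (30.2%, 28.2 to 32.3), and of 38 of 1988 A-rich ones (1.91%, 1.4 to 2.61). It lay within 100 bp of 2412 of 2900 members at the reference end (83.2%). Another annotated Ensembl end of the same gene lay within 100 bp of 345 early ends (8.7%), which held 42781 reads. Without those, RefSeq ends matched 21.5% of the ends that were not A-rich and 1.4% of A-rich ones.

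The genes with a symbol and most reads in early-ending members follow. SERINC3, a multipass membrane protein, led with 2459 reads, which were 96.0% of the reads of the gene, and its share ran from 88.8% in DSE epididymis to 98.6% in DSE prostate gland. FBXO21, a ubiquitin ligase subunit, had 2000 (87.0%). LRRC59, a membrane protein of the endoplasmic reticulum, had 1720 (99.4%), and CAT, the peroxisomal catalase, had 1573 (99.4%). TWSG1, a modulator of bone morphogenetic proteins, had 1491 (99.0%), and TOMM70, an import receptor of mitochondria, had 1439 (97.9%). ENSSSCG00000010893, which has no symbol, had 1444. In the 6 of these genes with a symbol the early end held most reads of the gene in every library. It lay within 7 bp of a RefSeq end in SERINC3, FBXO21, LRRC59, CAT and TWSG1, and within 100 bp of another annotated Ensembl end in FBXO21, LRRC59, CAT, TWSG1 and TOMM70. For these genes "early" means early only against the longer transcript that was matched. PAFAH1B2, a subunit of a platelet-activating factor hydrolase, had 1663 early reads (98.8%), and 1661 of them belonged to the A-rich end printed above, 547 bp before the end of the last exon. The eighth gene, COMMD10, is described at the end.

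Of the reads of members, testis had the largest share in early ends, while of all reads of a library it had the smallest. The percentage of member reads that lay in early-ending members was 33.1 in BMI testis and 32.4 in DSE testis. The other BMI libraries were at 26.2 in bulbourethral gland, 27.8 in epididymis, 29.6 in vesicular gland and 30.3 in the library labelled prostate gland. The other DSE libraries were at 29 in epididymis, 29.1 in each of bulbourethral and prostate gland, and 30.0 in vesicular gland. Both testis libraries lay above all others in this share. Testis averaged 32.7% ± 0.497 (SD, n = 2) and the other 8 libraries 28.9% ± 1.33 (SD, n = 8), a difference of 3.85 points with an exact permutation p of 0.0222, the smallest that 45 splits allow, and 0.111 after adjustment over 5 glands. This design cannot reach an adjusted p below 0.111. The difference was 1.91 points (exact permutation p = 0.111) when only ends more than 1000 bp upstream counted as early, 2.61 (0.0667) with any annotated end of the gene, 6.88 (0.0222) without A-rich ends and 0.926 (0.711) on the minus strand alone. When each isoform found was counted once in place of its reads the difference turned to −5.71 points (exact permutation p = 0.0222, adjusted 0.111). Testis then had fewer early-ending members (43.4% and 40.4% of members found, against 44.1% to 50.1%). Taken over all reads of the library, a denominator chosen after seeing the data, early-ending members held 3.77% in BMI testis and 3.53% in DSE testis and 3.86% to 5.04% elsewhere, and the difference turned to −0.721 points (exact permutation p = 0.0444, adjusted 0.222). Members at the reference end held 5.03% and 4.87% of all reads in testis and 6.85% to 8.65% elsewhere. None of the other 4 glands had libraries apart from the rest, with exact permutation p between 0.111 and 0.933 before adjustment. The difference in prostate gland was 0.051 points, and −0.503 without the library labelled BMI prostate gland. DSE exceeded BMI by 0.541 points and in 3 of 5 glands (exact sign-flip p = 0.562, where 0.0625 is the smallest possible). Leaving out the library labelled BMI prostate gland removes the prostate pair, and over the other 4 glands DSE exceeded BMI by 0.953 points (exact sign-flip p = 0.375, with a higher smallest possible p).

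Among the reads of members, early ends that were not A-rich were more frequent in testis than in any other library. They took 28.8% and 28.3% of member reads in testis and 19.6% to 23.1% in the other libraries. A-rich early ends took 4.34% and 4.1% in testis and 5.07% to 9.55% elsewhere. Of all reads of the library, early ends that were not A-rich overlapped, at 3.28% and 3.09% in testis and 2.77% to 3.76% elsewhere, while A-rich early ends were at 0.495% and 0.447% in testis and 0.703% to 1.51% elsewhere. As a share of early reads, A-rich ends were at 13.1% and 12.6% in testis, at 18.2% in BMI epididymis and at 22.0% to 32.8% in the other 7 libraries. Last-exon ends took 3.49% and 3.08% of member reads in testis against 1.79% to 2.49%, and internal-exon ends 11.1% and 10.6% against 8.44% to 9.51%, while ends in introns overlapped (18.5% and 18.7% against 15.2% to 19.4%). Of all reads of the library, last-exon ends overlapped, at 0.398% and 0.336% in testis and 0.273% to 0.348% elsewhere. Internal-exon ends were then at 1.26% and 1.15% against 1.26% to 1.59%, and ends in introns at 2.11% and 2.04% against 2.28% to 3.1%. AATAAA accounted for 54.2% and 54.7% of early reads in testis and 40.7% to 54.0% elsewhere, a difference of 9.16 points (exact permutation p = 0.0222, adjusted 0.111). Among ends that were not A-rich its share overlapped, at 60.5% and 60.9% in testis and 53.9% to 63.3% elsewhere. All members summed held less of testis, 11.4% and 10.9% of all reads against 13.9% to 17.3% (exact permutation p = 0.0222, adjusted 0.111). In these bulk libraries, fewer cells of a type and less RNA per cell cannot be told apart.

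**Figure D3:**
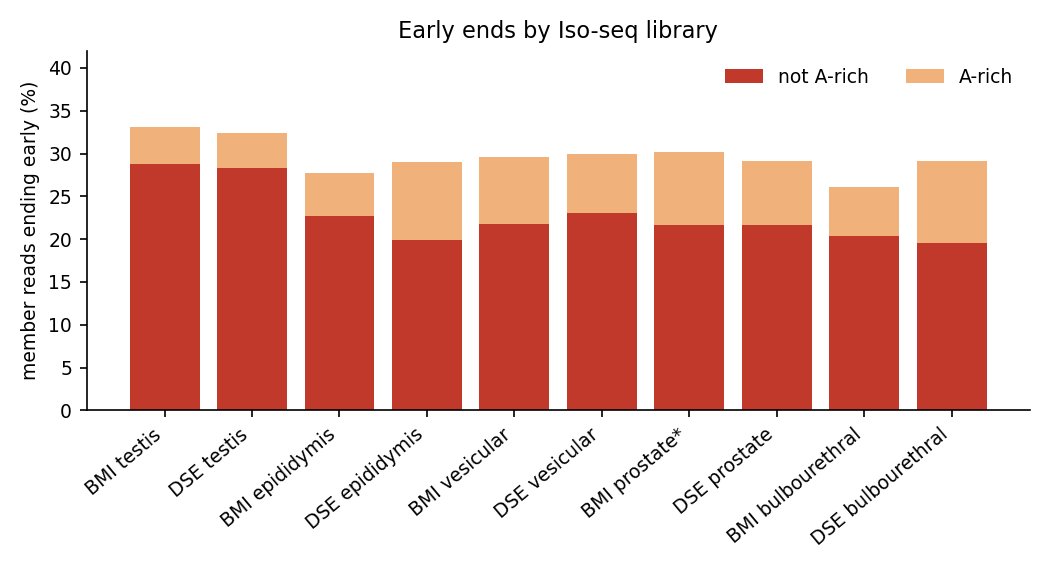
Bars give, for each of the 10 Iso-seq libraries, the percentage of member reads that lie in early-ending members, split into ends that are not A-rich and A-rich ends; the asterisk marks the library labelled BMI prostate gland. Both testis bars are the tallest, at 33.1% and 32.4%, and hold the smallest A-rich parts.

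Single members were compared between glands in a fit of all isoforms with enough reads. Of 9428 isoforms tested by edgeR's quasi-likelihood test, 432 were early-ending members and 1162 were members of any end. In testis against the other 4 glands, 83 early-ending members (19.2%) were higher and 58 (13.4%) lower at an adjusted p under 0.05 and a log2 change no smaller than 1, and over all isoforms tested 26.9% were higher and 11.6% lower. The median log2 difference was −0.21 over early-ending members and −0.14 over all isoforms tested. Of 100 A-rich early-ending members tested, 12 were higher and 28 lower. Members at the reference end gave 80 higher (16.5%) and 59 lower (12.1%) of 486.

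Few early-ending members passed in the other glands. Epididymis had 6 higher and 2 lower (over all isoforms 4.43% and 0.35%) and vesicular gland 10 and 0 (4.6% and 0.371%). Prostate gland had 5 and 0 (1.97% and 0.0318%) and bulbourethral gland 10 and 1 (3.02% and 0.53%). Unadjusted p under 0.05 was reached by 50, 46, 38 and 40 of the 432. Between breeds 1 was higher in DSE and 0 were lower (0.053% and 0.0636% over all isoforms), with 14 at an unadjusted p under 0.05. Without the library labelled BMI prostate gland, the counts for prostate gland were 2 and 0 and those between breeds 3 and 1, while vesicular gland had 18 and 2, epididymis 15 and 5 and bulbourethral gland 13 and 3. In that fit 1.26% of all isoforms were higher in prostate gland, 0.382% between breeds, 6.89% in vesicular gland, 6.63% in epididymis and 4.18% in bulbourethral gland, and 0.127% to 1.07% were lower. With all libraries, DESeq2 gave 53 and 30 in testis, 6 and 0 in vesicular gland, 3 and 0 in bulbourethral gland, 0 and 4 in epididymis, 1 and 0 in prostate gland and 1 and 0 between breeds. In testis these were 12.3% and 6.94% of the early-ending members tested, against 16.2% and 6.47% of all isoforms, and in the other comparisons DESeq2 called 0.0849% to 1.71% of all isoforms higher and 0.0636% to 0.647% lower.

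The early-ending member with the largest fold change follows for testis, vesicular gland, bulbourethral gland and prostate gland. TKTL1, a transketolase-like enzyme, had 268 reads in BMI testis, 103 in DSE testis and 0 in the other 8 libraries. It passed the filter on low counts through testis alone and was chosen for its fold change, so no test is given. Its end lay in the last exon, 309 bp before the reference end, behind AATAAA. FN1, the matrix protein fibronectin, had 157 and 156 reads in BMI and DSE vesicular gland and 318 in the library labelled BMI prostate gland, against 0 in DSE prostate gland, 2 in each bulbourethral gland library and 0 in testis and epididymis. Its log2 fold change in vesicular gland was 7.65 with the library labelled BMI prostate gland and 9.48 without it, and its end was A-rich at 80%. DESeq2 did not call it. Like the TKTL1 member, it needed its own gland to pass the filter and was chosen for its fold change, so no p-value is given. SLC5A1, a sodium-glucose cotransporter, had 54 and 34 reads in BMI and DSE bulbourethral gland, 10 and 3 in vesicular gland, 2 in the library labelled BMI prostate gland and 0 in the rest (log2 fold change 6.22, with no p-value for the same reason). Its end was A-rich at 75%. In prostate gland the largest was COMMD10, which was lost without the library labelled BMI prostate gland (log2 fold change 6.83 with it and 1.78 without, edgeR adjusted p = 0.00139 and 0.274).

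The share of a gene's reads that lay in early-ending members was then tested in 1436 genes. Each had at least 1 early-ending member and at least 10 reads in 6 or more libraries. Reads of all other isoforms of the gene counted on the other side, even where these isoforms end early. Such isoforms include 4723 ISM isoforms without a signal and 1059 full splice matches, so the share also depends on isoform category. Testis differed in 30 genes, 11 with a higher share (0.766% of genes tested) and 19 with a lower one (1.32%) at an edgeR adjusted p under 0.05 and a difference of at least 10 points. The median difference over all genes was −1.27 points. Epididymis, vesicular gland and bulbourethral gland had 0 called genes in each direction (0%), with 64, 27 and 28 genes at an unadjusted p under 0.05. Prostate gland had 1 (0.0696%) and the breed comparison 1 (0.0696%), and both were COMMD10. Without the library labelled BMI prostate gland the prostate gland call was lost, but prostate gland then rested on 1 library. The COMMD10 difference in prostate gland was 50.1 points in that fit, against 48.4 with all libraries. The breed comparison kept its call. The testis calls needed both testis libraries. Without BMI testis 6 genes were called and without DSE testis 0, where the lone library is assumed to vary like the other glands, and without any 1 of the other 8 libraries 21 to 28 were. Without the library labelled BMI prostate gland, 9 genes were higher and 18 lower in testis.

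Of the 11 genes that were higher in testis, 1 had an A-rich leading end and 1 ended within 100 bp of a RefSeq end. The 3 described first were chosen for testis libraries that lay apart from all others, so that separation is not a result. USP20, a deubiquitinase, had 26 of 58 reads in early-ending members in BMI testis (44.8%) and 26 of 65 in DSE testis (40%). It had 1 of 8 in DSE prostate gland, 1 of 22 in BMI bulbourethral gland and 0 in the other 6 libraries, where 8 to 55 reads allow a share of up to 37.5% to 5.45%. The difference was 40.3 points (edgeR adjusted p = 0.000213). RCOR3, a corepressor of the CoREST family, was at 40.4% (19 of 47) and 39.1% (18 of 46) in testis and at 0% to 11.1% elsewhere, 35.3 points higher (edgeR adjusted p = 0.00974). PIAS2, a SUMO ligase that acts on the androgen receptor, was at 37.6% (44 of 117) and 46.6% (48 of 103) in testis and at 4.26% to 13.7% elsewhere, 32.5 points higher (edgeR adjusted p = 0.0359). Of these calls that of PIAS2 held least often, with an adjusted p of 0.0587 to 0.983 in 7 of 10 fits that left out 1 library and of 0.06 with any annotated end of the gene and 0.0533 with a filter of at least 1 read in 6 libraries, and RCOR3 was at 0.0633 without BMI epididymis (edgeR). All 3 leading ends lay in introns and used AATAAA, and their last bases are given here with the signal in capitals.

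USP20 (chr1:270037474-270037503, plus strand): atAATAAAtgcataacattccctgctgccc
RCOR3 (chr9:131836495-131836524, minus strand): tgtttaaAATAAAagaagcttgtgcttccc
PIAS2 (chr1:96448072-96448101, minus strand): acttaacgataAATAAAaagtgattttggg

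The USP20 end lay 190 bp into intron 27 of a transcript with 28 exons and 4 bp from a RefSeq end. The RCOR3 end lay in intron 11 of 12 exons, 328 bp in, and preceded the stop codon. The PIAS2 end lay in intron 13 of 15 exons.

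The other genes that were higher in testis, named after their values were seen, were KIFAP3 (19.5% and 23.5% in testis, 0% to 4.35% elsewhere), TBC1D20 (22.5% and 26.6%, 0.99% to 6.9%), GORASP2 (13.6% and 22.0%, 0% to 2.38%), ZNF638 (16.7% and 40%, 0% to 5.0%), ATXN3L (17.4% and 46.2%, 0% elsewhere), MAP4K3 (12.0% and 20%, 0% elsewhere), THNSL1 (8.89% and 12.5%, 0% elsewhere) and LIMCH1. MAP4K3 was called in none of the 10 fits that left out 1 library and THNSL1 in 1 of them, and both calls were lost with any annotated end of the gene and with a looser filter on reads. KIFAP3 is the accessory subunit of a ciliary kinesin, and GORASP2 is a stacking protein of the Golgi. In LIMCH1 the testis libraries lay far apart, at 1 of 20 reads in BMI and 23 of 24 in DSE (95.8%), so that 1 library decides the value.

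Of the 19 genes that were lower in testis, the leading end was A-rich in 7, and in 6 of 18 that could be compared it lay within 100 bp of a RefSeq end. The genes described first were chosen in the same way as those that were higher. MSH3, a mismatch repair protein, had 4 of 14 reads in early-ending members in BMI testis (28.6%) and 0 of 22 in DSE testis, which allows a share of up to 13.6%, against 75% to 100% elsewhere on 4 to 17 reads, a difference of −78.2 points (edgeR adjusted p = 0.000208). RNF138, a ubiquitin ligase, was at 33.8% (52 of 154) and 18.4% (25 of 136) in testis and at 66.7% to 100% elsewhere, a difference of −61.8 points (edgeR adjusted p = 0.000218). With known isoforms alone this turned to 5.69 points. The gene annotated as GEMIN4 was at 4.14% (19 of 459) and 5.16% (16 of 310) in testis and at 43.0% to 71.4% elsewhere, a difference of −54.5 points (edgeR adjusted p = 1.84e-05). GEMIN4 reads were more numerous in testis than in any other library, and the part of total level in its share was not tested.

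MSH3 (chr2:89451624-89451653, plus strand): tgtcatttaataagtAATAAAcatttaatg
RNF138 (chr6:115976674-115976703, plus strand): ggcaaacttgcattaATTAAAcgataccat

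These lines give the last bases of the early ends of MSH3 and RNF138, both inside the second-last exon and behind the stop codon. The GEMIN4 end, printed near the start, lay 1605 bp into the last intron, before the stop codon. That member had 9 exons and a predicted reading frame of 298 amino acids, and which protein the frame encodes was not examined.

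**Figure D4:**
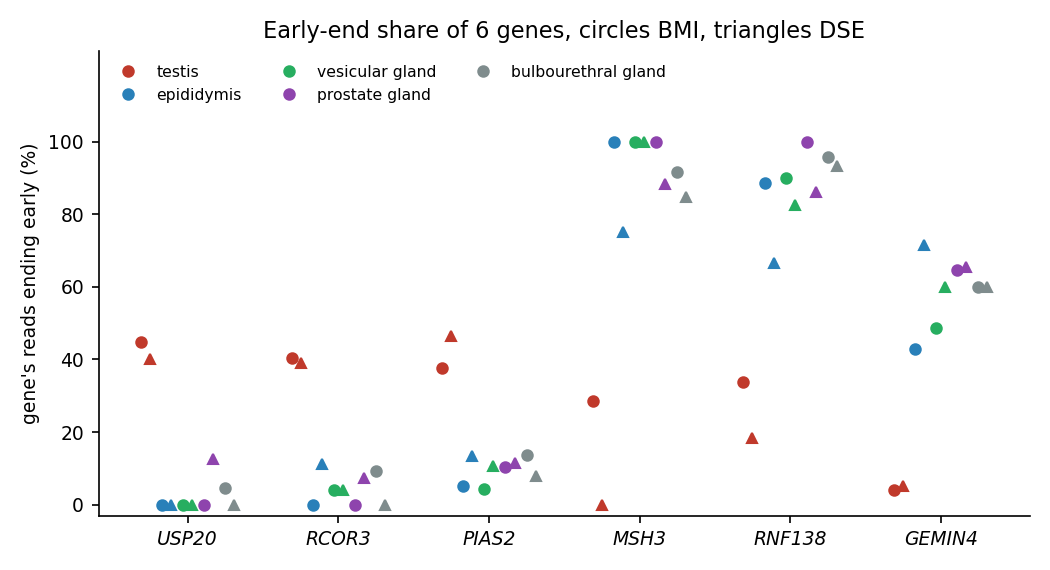
The y axis gives the percentage of a gene's full-length reads that lie in early-ending members, for the 6 genes named by rule. There is 1 point for each library that had reads (circles BMI, triangles DSE, colours by gland). The library labelled BMI prostate gland is a circle in the prostate colour. In USP20, RCOR3 and PIAS2 both testis points lie above all others, and in MSH3, RNF138 and GEMIN4 both lie below, which the rule for naming them required.

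The further genes that were lower in testis, named after their values were seen, included SLAIN2, a microtubule regulator (5.47% and 6.4%, against 31.4% to 74.8%), TMEM144 (56.5% and 40%, against 86.0% to 95.9%), SIL1, a nucleotide exchange factor of the endoplasmic reticulum (62.2% and 49%, against 80.0% to 100%), and TNKS, the poly-ADP-ribosyltransferase tankyrase (1.11% and 1.38%, against 9.86% to 39.1%). The leading end of TNKS was A-rich at 80%. With known isoforms alone, SLAIN2 kept its call (edgeR adjusted p = 0.000663), while TMEM144 was at −1.48 points, SIL1 at 0 and TNKS at −22.5 (edgeR adjusted p = 1 for each), as it was for CCDC91 (−8.32) and ICA1 (−18.8). In SIL1 every read of a known isoform ended early, and the gene was called in 3 of the 10 fits that left out 1 library. Others that are reported were ARIH2, CCDC91, FAR1, FDFT1, GPATCH8, ICA1, LTN1, SERAC1 and the genes ENSSSCG00000010893 and ENSSSCG00000039473. LTN1 was called in 1 of the 10 fits that left out 1 library. With any annotated end of the gene as the reference, SLAIN2, SIL1, ARIH2 and FDFT1 had no early-ending member left and were not tested, FAR1 was at −1.33 points, ICA1 at −0.815 and ENSSSCG00000010893 at −1.57 (edgeR adjusted p = 0.374, 1 and 1), and CCDC91 and LTN1 also missed the threshold (0.0503 and 0.0679). With A-rich ends left out, 751 genes were tested, and 13 were higher and 13 lower in testis.

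Outside testis no gene passed for epididymis, vesicular gland or bulbourethral gland, and the genes with the smallest p are given. LMBRD2, a membrane protein, had 8.33% of its reads in early-ending members in BMI epididymis and 44.2% in DSE epididymis, against 0% to 13.3% elsewhere (22.9 points, edgeR adjusted p = 0.22). Without BMI epididymis its adjusted p by edgeR was 0.0212, but that fit compares the DSE epididymis library alone, which is assumed to vary like the other glands. HLCS, which attaches biotin to carboxylases, was at 6.67% and 52.9%, against 0% to 14.6% (27.2 points, edgeR adjusted p = 0.22). Both ends were A-rich, as their sequences show, and the DSE epididymis library was the shallowest, with A-rich ends at 31.3% of its early reads against 18.2% in BMI epididymis. The part of this in both shares was not tested. In vesicular gland DPH5 and GPATCH8 were nearest. In bulbourethral gland FDFT1, the squalene synthase, was at 61.1% (22 of 36) and 60% (3 of 5), against 0.862% to 37.5% elsewhere (edgeR adjusted p = 0.727). FAR1, a reductase of fatty acyl chains, was second.

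Lists of genes with a known bearing on polyadenylation were described beside these. Of 26 genes of the cleavage and polyadenylation machinery, 22 had reads and 7 had 13 early-ending members, led by PAPOLA, the poly(A) polymerase, with 336 early reads (15.4% of the gene), RBBP6 with 198 (67.6%) and CPSF7 with 135 (51.7%). None of the 6 tested was called in any contrast. Of 11 genes known for intronic polyadenylation, 5 had 15 early-ending members. EPRS1, the glutamyl-prolyl-tRNA synthetase, had 752 reads (55.7%) ending in intron 20 of 32 exons, with shares from 47.9% to 79.1% by library. MAGI3, a scaffold of cell junctions, had 38 (15.4%). Of 19 genes known for tandem sites, 3 had 4 early-ending members, and ELAVL1, the RNA-binding protein HuR, had 1388 reads (97.2%). Of 24 spermatocyte and spermatid genes, 5 had 14, and ODF2 had 225 reads, of which 100 and 110 were in BMI and DSE testis (7.03% and 6.0% of its reads there). Of 27 genes of the early secretory pathway, 9 had 14, led by LMAN2, a lectin of cargo sorting, with 792 (96.2%). The 4, 3, 1 and 8 genes tested from these lists gave 0 calls, by the same edgeR test, against 30 of 1436 over all genes in testis.

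The machinery itself was measured in the 30 RNA-seq libraries, 3 per gland and breed. CPSF2, a subunit of the complex that binds the hexamer, averaged 42.5 ± 11.9 TPM (length-corrected transcript abundance; SD, n = 6) in testis and 10.3 ± 3.98 (n = 24) in the other glands, and all testis libraries lay above all others. The same held for CSTF1 (19.1 ± 4.06 and 5.71 ± 2.32 TPM), CLP1 (34.0 ± 7.46 and 8.61 ± 3.21) and SNRPC, a component of the U1 particle (173 ± 49.8 and 33.9 ± 13.3). These were 4 of the 23 machinery genes with values (17.4%), against 23.5% of all 16842 genes with a mean of at least 1 TPM, so that the share was near the background. The other 19 overlapped, among them CSTF2T (15.1 ± 2.13 and 24.9 ± 20.5). No test was run on these levels, and their part in the early-end shares was not tested.

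COMMD10, a member of the copper metabolism domain family, differed between the DSE libraries and most BMI libraries. Its leading early-ending member had 69 reads in DSE epididymis, 71 in DSE testis, 224 in DSE bulbourethral gland, 348 in DSE vesicular gland and 645 in DSE prostate gland. It had 0 in BMI testis, epididymis, vesicular gland and bulbourethral gland, and 197 in the library labelled BMI prostate gland. As a share of the gene, early ends made up 87.7% to 96.4% in the 5 DSE libraries, 92.9% in the library labelled BMI prostate gland and 0% in the other BMI libraries, where 0 of 51 to 193 reads allow at most 5.88% to 1.55%. The breed difference was 74.8 points (edgeR adjusted p = 5.12e-19) with all libraries and 93.4 points (2e-29) without the library labelled BMI prostate gland.

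The other BMI libraries held COMMD10 in a different form. An isoform of 8 exons outside the catalogue of known junctions had 46, 181, 83 and 144 reads in BMI testis, epididymis, vesicular gland and bulbourethral gland, 2 in the library labelled BMI prostate gland and 0 in the 5 DSE libraries. The early-ending member has 7 exons and ends at position 120430570 of chromosome 2, 134 bp from another annotated end of the gene. The 8-exon isoform leaves its second-last exon at 120429043, which is 1527 bp before that end, and joins a last exon of 244 bp that lies 1759096 bp further along the chromosome (chr2:122188140-122188383). The last bases of that exon hold AAGAAA, 5 bases from the end, and are followed by 75% A.

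COMMD10, distant last exon (chr2:122188354-122188383, plus strand): atatgccgcaggagcggcccAAGAAAtagc

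Both 10-base strings stood in the 50 bases before this end, and its letters are close to those printed for ENSSSCG00000039473 on chromosome 12. Counting known isoforms alone leaves the 8-exon form out of the gene, and then BMI testis, epididymis, vesicular gland and bulbourethral gland had 0 reads of COMMD10, so that the share could not be compared between breeds. Whether the 2 breeds differ in sequence at this locus was not analysed here.

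**Figure D5:**
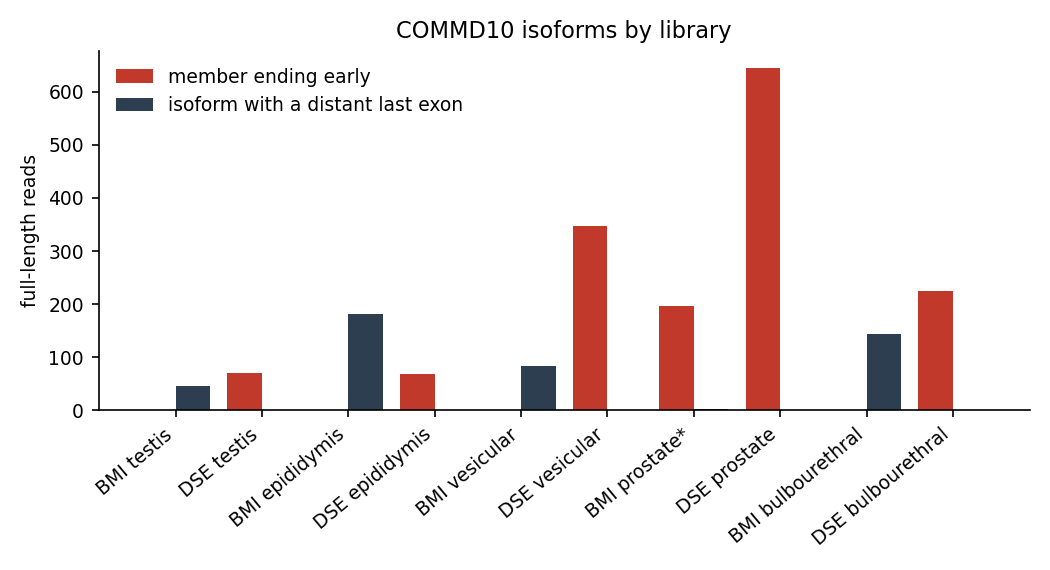
Bars give full-length reads of the early-ending COMMD10 member and of the isoform with the distant last exon in the 10 Iso-seq libraries; the asterisk marks the library labelled BMI prostate gland. The early-ending member is present in the 5 DSE libraries and the marked one (69 to 645 reads), and the other isoform in the remaining BMI libraries (46 to 181 reads).

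The strand of the genome bore on the members. Of the 7890, 5414 (68.6%, 67.6 to 69.6) were read from the plus strand, against 51.7% of full splice matches and 53.7% of all isoforms. Members at the reference end were at 81.9% and members past it at 81.0%, and of 3′ fragment members with any end 2061 of 2449 (84.2%) were on the plus strand. Early-ending members were at 55.7% (54.1 to 57.2), with early 5′ fragments at 48.9% (47 to 50.7) and the other early-ending members at 71.3% (68.7 to 73.8). On each strand taken alone, both testis libraries lay above every other library on the plus strand (28.6% and 28.0%, against 21.1% to 25.1%) but not on the minus strand (40.4% and 39.1%, against 34.2% to 42.5%).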

How the data were processed

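Full-length read counts per isoform and library were used as deposited. According to the methods of the study, the authors processed subreads with SMRT Link and IsoSeq3, kept reads with a poly(A) tail and clustered all libraries together. They aligned the isoforms to Sscrofa11.1 with GMAP (the processing notes name GSNAP), collapsed them with cDNA_Cupcake and classified them with SQANTI3 against Ensembl annotation. The deposited percentage of A after each end covers 20 bases. Distances to reference ends, signals and overlap of 5′ ends with annotated starts came from the same table. RNA-seq TPM values were made by the authors with Salmon 1.9.0. Small RNA values were not used.

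Ends were rebuilt from the Ensembl models of the deposited annotation and compared with the genome: for 7791 of 7890 members, those on chromosomes, the following bases and the signal were found where reported. Sequences and RefSeq ends came from RefSeq's Sscrofa11.1.

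edgeR 4.0.16 (TMM, filterByExpr, quasi-likelihood, gland and breed as terms, each gland against the mean of the other 4) tested isoforms. The share of a gene's reads in early-ending members was tested by the same tool with a term for each library. Adjustment was Benjamini-Hochberg over all features. Library percentages were compared by two-sided exact permutation over 45 splits (breeds, 32 sign flips). In simulated testis data, changes of 2 and 4 log2 units were recovered for 27% and 77.5% of isoforms and, for the share, 6% and 85% of genes.

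The genes named were, per contrast, the 3 called genes with the largest difference in each direction whose libraries did not overlap, or else the 2 with the smallest p, the 8 with a symbol and most early reads, 1 member per gland, and the leading genes of each list. Members and lists were chosen with earlier results of these data known. Alternatives were other size factors (RLE), DESeq2 1.42.0, other filters and distances, A-rich ends left out, other reference ends, known isoforms only, and each library left out. Some genes that the rule names are counted but not reported here.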

Additional observations from a re-analysis of the deposited data

Results flagged for a closer look

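Among the 5 DSE libraries, the percentage of member reads that ended early was 32.4 in DSE testis, and its gap to the nearest other DSE library was 0.718 of the range of the 5, which sets it apart from the rest by Dixon's test. Such a test marks about 1 in 20 groups by chance. BMI testis was at 33.1, and among the 5 BMI libraries no value was set apart.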

How the results depend on the processing

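The breeds were compared as pairs within glands by sign flips, and breed was a term of the fits except where stated. By replicate number, no paired analysis was possible because the Iso-seq labels carry none and no test was run on the RNA-seq levels. Of the planned and added alternatives for results that answer a comparison, 364 kept direction and count, 51 moved and 28 turned direction. For percentages of libraries, differences are in points. Counting isoforms once turned the early-end percentage in testis to −5.71, in bulbourethral gland to 2.05 and between breeds to −0.553, the member percentage in epididymis to 0.552 and the AATAAA percentage in epididymis to −1.04. Leaving out A-rich ends gave −0.223 in vesicular gland, −1.05 in prostate gland and −0.322 between breeds, and using any annotated end gave −1.13 in vesicular gland. Over all reads of the library, a denominator chosen after seeing the data, testis was at −0.721 and bulbourethral gland at 0.333. Single strands, chosen after seeing the data, gave −0.156 in prostate gland (plus), 0.895 in epididymis and −0.043 in vesicular gland (minus). Without 1 library, the early-end difference ran from −0.321 to 0.67 in vesicular gland, −0.503 to 0.605 in prostate gland and −0.0705 to 0.953 between breeds, the member difference from −0.0506 to 0.992 in vesicular gland and −0.0872 to 0.917 between breeds, and the AATAAA difference from −2.94 to 7.32 in epididymis. None of these passed a test with all libraries.

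Members called numbered 355 in testis (DESeq2 232), 51 in epididymis (22), 46 in vesicular gland (22), 44 in bulbourethral gland (20), 13 in prostate gland (4) and 1 between breeds. In testis this was 30.6% of the 1162 members tested against 38.5% of all isoforms (DESeq2 20% and 22.6%), and in the other glands 1.12% to 4.39% against 2% to 4.97% (0.344% to 1.89% and 0.424% to 2.17%). Without the filter, epididymis had 88 (1.12% of 7890 members, against 0.814% of all isoforms) and breeds 3 (0.038% against 0.0405%), and without the breed term prostate gland had 3 (0.258% against 0.541%). Without 1 library, counts ran from 129 to 383 in testis, 10 to 87 in vesicular gland, 14 to 91 in epididymis, 10 to 83 in bulbourethral gland, 2 to 25 in prostate gland and 0 to 8 between breeds. Over all isoforms in the same fits, 17.9% to 40.7% were called in testis, 1.55% to 7.97% in vesicular gland, 1.42% to 7.49% in epididymis, 1.02% to 6.15% in bulbourethral gland, 0.233% to 3.56% in prostate gland and 0.0106% to 0.721% between breeds. The highest counts in testis, epididymis and vesicular gland came without the library labelled BMI prostate gland, and 8 between breeds without the prostate gland library of either breed. Genes with a changed share in testis fell from 30 to 17 with any annotated end and to 14 with known isoforms alone, which gave 0 in prostate gland and 0 between breeds, where COMMD10 had no such reads in 4 of 5 BMI libraries. Without 1 library they ran from 0 to 28 in testis, 0 to 2 in epididymis, 0 to 1 in prostate gland and 1 to 2 between breeds. With known isoforms alone, among single genes, RNF138 turned direction in testis to 5.69 points and ENSSSCG00000010893 to 1.42. With at least 1 read in 6 libraries as the filter, PIAS2, MAP4K3, SIL1, THNSL1 and LTN1 missed the threshold in testis (edgeR adjusted p = 0.0533 for the first 3, 0.058 and 0.0629), as did MAP4K3 and THNSL1 with any annotated end (0.0679 and 0.0682). The cause was not tested. Most early-ending members have too few reads for a test, 432 of 3965 were tested, and shares on under 10 reads, as in MSH3, are coarse.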
